A study of Mus musculus with 12 samples.

Results

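The STING and RNA sensing machinery was followed here as 8 genes: Tmem173, Tbk1, Ikbke, Irf3, Irf7, Ddx58, Ifih1 and Mavs. They were chosen by name, as the receptor that ADU-S100 binds, the kinases and transcription factors below it, and the parallel RNA sensing arm. All 8 were found among the 750 genes with values, and all 8 were among the 689 genes that passed the filter on low values and were tested. The question was whether the pathway of the drug target was itself changed at the mRNA level 3 days after the agonist was given.

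STING, encoded by Tmem173, sits in the endoplasmic reticulum and binds the cyclic dinucleotide that the DNA sensor cGAS makes from cytosolic DNA. Bound STING recruits the kinase TBK1 and its relative IKKε (Ikbke), which phosphorylate IRF3 and IRF7, and these factors switch on type I interferon genes. RIG-I (Ddx58) and MDA5 (Ifih1) detect viral-type RNA and signal through the mitochondrial adaptor MAVS to the same kinases, and Irf7, Ddx58 and Ifih1 are themselves known interferon-stimulated genes, so the pathway can feed back on its own parts.

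The samples were 12 triple-negative breast tumors of mice with floxed Brca1 and Trp53 genes (Brca1 f/f and Trp53 f/f) and a K14-Cre transgene, whose keratin 14 promoter drives Cre in epithelium and so deletes both tumor suppressors there. The tumors were grafted into mammary fat pads of FVB/129P2 hosts, and all 4 groups carried the same deletions. Each group held 3 tumors taken on day 3. Vehicle mice received DMSO diluted in saline intraperitoneally and saline into the tumor. ADU-S100 mice received 50 μg of the STING agonist in 1 intratumoral injection of 40 μl, with DMSO diluted in PBS intraperitoneally. Olaparib mice received the PARP inhibitor at 50 mg/kg daily by the intraperitoneal route with saline into the tumor, and combination mice both drugs. RNA of a tumor piece was counted with NanoString nCounter probes, which tag and count RNA molecules without amplification, and because the piece holds tumor, stromal and immune cells together, fewer cells of a type and less RNA per cell cannot be told apart. Nothing says that the tumors of a group came from separate experiments, so a p-value measures the spread between these tumors.

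The values are counts that the authors normalized against positive controls and housekeeping genes. The value of 1 count in each tumor, called its scaling factor here, could be read back from them. Recovered totals ran from 106206 to 1519471 counts, and scaling factors from 0.589 to 10.5, both extremes of the factor being olaparib tumors (1521 and 1517). Vehicle tumors had factors of 0.682 to 1.49, ADU-S100 tumors 1.43 to 2.85 and combination tumors 0.810 to 0.824. The 8 genes had at least 67 recovered counts in every tumor. The epithelial markers Epcam, Cdh1 and Muc1 summed to between 10802 and 22177 across the 12 tumors, and none of the marker genes checked was at the floor of the table.

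Promoter windows are shown for the 3 interferon-stimulated members, because the core of the interferon-stimulated response element can be looked for in them. The search was for GAAA, any 2 bases, then GAAA on either strand of the 300 bases from 250 before to 50 after the annotated start (RefSeq, GRCm38.p6), and capitals mark the match. The windows are chr4:40239776-40240075 for Ddx58, chr2:62646206-62646505 for Ifih1 and chr7:141266375-141266674 for Irf7, all on the minus strand and printed 5′ to 3′ on that strand.
Ddx58: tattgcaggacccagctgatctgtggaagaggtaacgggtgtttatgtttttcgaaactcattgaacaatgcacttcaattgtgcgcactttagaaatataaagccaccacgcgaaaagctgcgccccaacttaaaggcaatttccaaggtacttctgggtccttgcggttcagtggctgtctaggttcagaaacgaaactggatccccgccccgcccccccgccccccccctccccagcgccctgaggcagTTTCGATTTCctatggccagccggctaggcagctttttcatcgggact
Ifih1: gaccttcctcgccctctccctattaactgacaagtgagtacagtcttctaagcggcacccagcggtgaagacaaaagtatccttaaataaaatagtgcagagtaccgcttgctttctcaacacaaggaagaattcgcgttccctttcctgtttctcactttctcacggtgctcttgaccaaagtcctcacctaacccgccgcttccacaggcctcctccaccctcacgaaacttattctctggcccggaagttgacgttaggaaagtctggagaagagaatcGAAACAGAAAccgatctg
Irf7: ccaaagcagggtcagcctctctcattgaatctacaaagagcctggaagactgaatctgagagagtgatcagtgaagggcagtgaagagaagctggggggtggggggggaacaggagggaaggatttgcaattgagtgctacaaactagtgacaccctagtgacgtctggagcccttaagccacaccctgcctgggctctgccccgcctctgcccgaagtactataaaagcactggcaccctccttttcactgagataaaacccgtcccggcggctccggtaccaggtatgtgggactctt

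The Ddx58 window holds the letters on the reverse strand from base 3 to base 12 after the start, and the Ifih1 window on the forward strand from base 33 to base 42. Of the 7 members with a window searched, 2 held the letters, and the windows of Irf7, Tbk1, Ikbke, Irf3 and Mavs did not. No window of Tmem173 was searched. Among the 32851 windows searched 3.44% held them, and among the 512 tested genes with a window 9.38% did. The search left out a whole chromosome of the reference, so a gene without a window here may still have one there. The listed output genes of the pathway, such as interferon-stimulated antiviral genes and chemokines, held them in 9 of 13 windows (69.2%), and the genes that carry the signal between adaptors and transcription factors in 0 of 13. A match of these letters is a description of the window, and no protein binding was measured.

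Tmem173, the drug target, had nearly the same group mean with and without its agonist as the authors scaled the data. Under other scalings its value with ADU-S100 was lower without olaparib and higher with olaparib, and no test was passed. Its normalized counts were 498, 544 and 533 in the vehicle tumors (tumors 1269, 1529 and 1536), and 667, 454 and 437 in the ADU-S100 tumors (1506, 1512 and 1513). They were 793, 713 and 496 in the olaparib tumors (1510, 1517 and 1521) and 654, 916 and 569 in the combination tumors (1251, 1270 and 1539). All 3 combination tumors lay above all 3 vehicle tumors, while the ADU-S100 tumors spread to both sides of the vehicle tumors. On the log2 scale (value plus 1), ADU-S100 alone minus vehicle was -0.04 (SE 0.36, n = 3 and 3), a fold of 0.971 with a 95% interval of 0.559 to 1.68 (limma, adjusted p = 0.975). With all tumors scaled to the same median it was -0.45 (limma, adjusted p = 0.928), with quantile normalization -0.42 (limma, adjusted p = 0.974) and with TMM -0.59 (edgeR, adjusted p = 0.773). With olaparib, the combination minus olaparib alone was 0.09 (SE 0.36, limma, adjusted p = 0.924), and under the same scalings 0.24, 0.23 and 0.19. Averaged over the arms with and without olaparib, the difference of ADU-S100 was 0.03 (SE 0.26, 95% interval of the fold 0.689 to 1.50, limma, adjusted p = 0.999), and the combination minus vehicle was 0.41 (SE 0.36, limma, adjusted p = 0.949). The latter was 0.21, 0.17 and 0.063 under the same scalings, and 0.63 among tumors whose numbers begin with 12 against 0.08 among those whose numbers begin with 15. The order of the group means was ADU-S100, vehicle, olaparib and combination, at 519 ± 128, 525 ± 24.1, 667 ± 154 and 713 ± 181 (SD, n = 3 each), and the first pair and the last pair in this order lay within their spread.

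**Figure D1:**
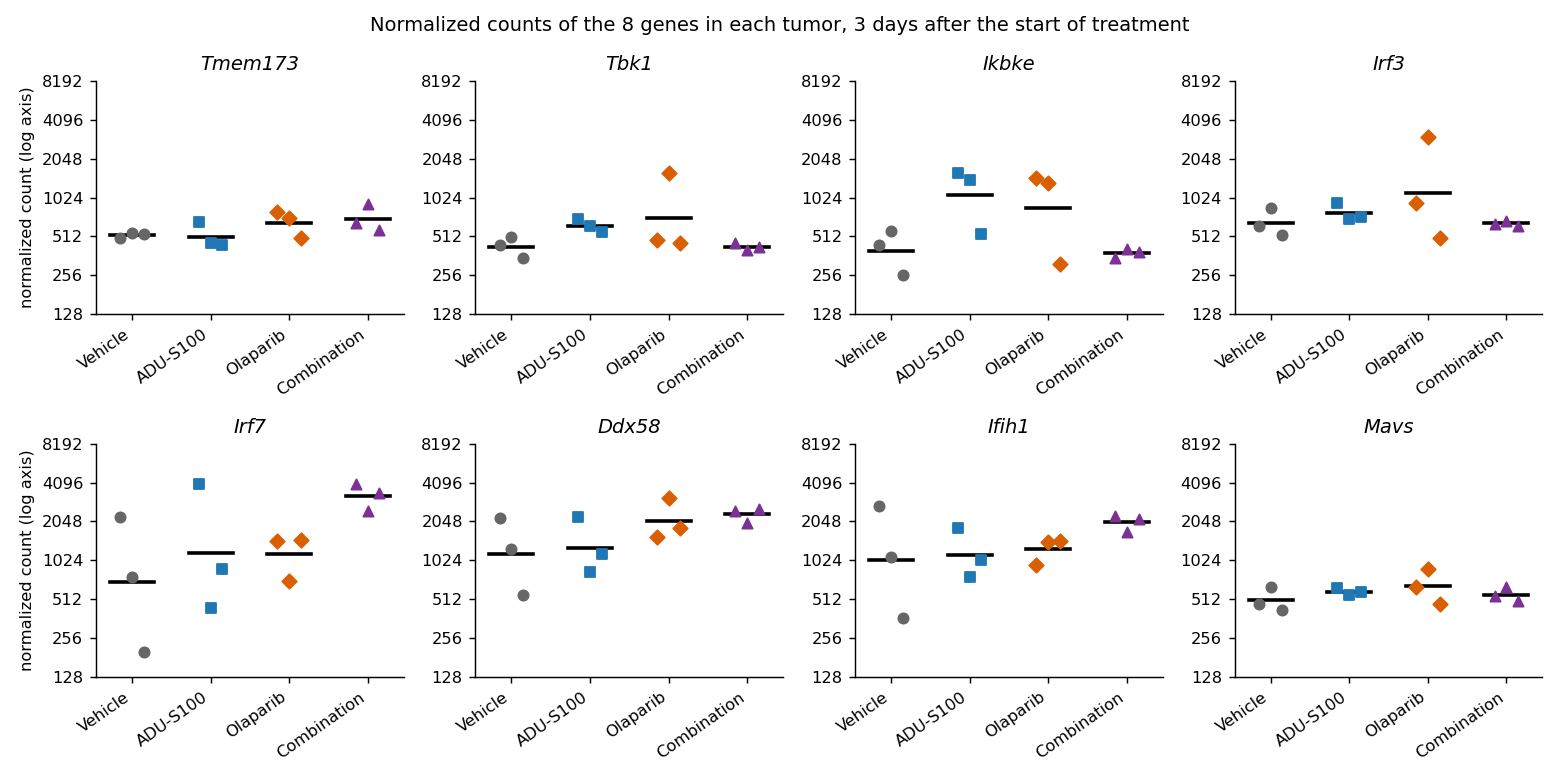
Normalized counts (log axis) of the 8 genes in the 12 tumors, by treatment group. Each symbol is 1 tumor, in the order of tumor number, and each line is the group mean on the log2 scale. Combination tumors sit close together for Irf7, Ddx58 and Ifih1, with the highest group mean, while vehicle tumors of these genes spread by 11.0, 3.99 and 7.31 times between the lowest and the highest.

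Irf7, the interferon-inducible factor that amplifies type I interferon, had the highest combination levels relative to vehicle of the 8 genes. Vehicle tumors had 2201, 763 and 201 normalized counts and ADU-S100 tumors 4022, 438 and 882. Olaparib tumors had 1448, 702 and 1464, and combination tumors 3976, 2460 and 3379. The 3 combination tumors were above all vehicle and all olaparib tumors, but tumor 1506 of the ADU-S100 group was higher still, at 4022 against 882 and 438 in the others of its group. The combination minus vehicle was 2.20 (SE 0.90, fold 4.60, 95% interval 1.17 to 18.1, limma, unadjusted p = 0.0322, adjusted p = 0.504), and the combination minus olaparib alone was 1.49 (SE 0.90, limma, adjusted p = 0.638). ADU-S100 alone minus vehicle was 0.73 (SE 0.90, limma, adjusted p = 0.879), and averaged over both olaparib arms ADU-S100 gave 1.11 (SE 0.64, limma, adjusted p = 0.999).

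The combination result for Irf7 leaned on single vehicle tumors and on the number series of the tumors. Without vehicle tumor 1536 the combination minus vehicle was 1.31 and without vehicle tumor 1269 it was 3.03. The tumor numbers begin with 12 or with 15, and the labels do not say what this means. Within the 12 series (2 combination tumors and 1 vehicle tumor) the difference was 0.51, and within the 15 series (1 and 2) it was 3.11. All 3 olaparib tumors are of the 15 series, and with the series as a block the combination minus olaparib alone was 0.70. The ADU-S100 difference averaged over both arms was 0.66 without ADU-S100 tumor 1506.

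Ddx58 and Ifih1, the RNA sensors, were also highest on average in the combination tumors, although the highest single tumor was olaparib tumor 1517 for Ddx58 and vehicle tumor 1269 for Ifih1. Ddx58 had 2188, 1250 and 548 normalized counts in vehicle tumors, 2233, 833 and 1140 in ADU-S100 tumors, 1561, 3123 and 1813 in olaparib tumors and 2445, 2006 and 2563 in combination tumors. Ifih1 had 2673, 1085 and 366 in vehicle tumors, 1823, 760 and 1027 in ADU-S100 tumors, 945, 1425 and 1453 in olaparib tumors and 2261, 1687 and 2142 in combination tumors. For both genes the range of the vehicle tumors overlapped that of the combination tumors, since vehicle tumor 1269 was high and vehicle tumor 1536 low. The combination minus vehicle was 1.02 for Ddx58 (SE 0.55, limma, adjusted p = 0.693) and 0.98 for Ifih1 (SE 0.63, limma, adjusted p = 0.812). Averaged over both arms, ADU-S100 gave 0.17 (SE 0.39) for Ddx58 and 0.41 (SE 0.45) for Ifih1, both with an adjusted p of 0.999 in limma. Without vehicle tumor 1536 the combination differences were 0.49 and 0.24, and without vehicle tumor 1269 they were 1.49 and 1.67. Within the 12 series they were 0.02 and -0.45, and within the 15 series 1.63 and 1.76.

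Mavs, the adaptor of both RNA sensors, varied least of the 8 genes, by 2.07 times from the lowest to the highest of the 12 tumors. It had 473, 636 and 425 normalized counts in vehicle tumors, 629, 552 and 576 in ADU-S100 tumors, 639, 880 and 471 in olaparib tumors and 538, 640 and 497 in combination tumors. All 4 groups overlapped, and ADU-S100 averaged over both arms gave 0.0029 (SE 0.25, 95% interval of the fold 0.682 to 1.47, limma, adjusted p = 0.999).

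Tbk1, the main kinase below STING, was above every vehicle tumor in all 3 ADU-S100 tumors. It had 439, 510 and 348 normalized counts in vehicle tumors, 704, 615 and 549 in ADU-S100 tumors, 483, 1593 and 456 in olaparib tumors and 454, 401 and 427 in combination tumors. The ADU-S100 and vehicle groups did not overlap, and neither did the combination group and the ADU-S100 or the olaparib group, below both. ADU-S100 alone minus vehicle was 0.53 (SE 0.47, fold 1.45, 95% interval 0.705 to 2.97, limma, adjusted p = 0.809), which became 0.02 with the log2 scaling factor as a covariate. Averaged over both olaparib arms the difference was -0.09 (SE 0.33, limma, adjusted p = 0.999).

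Ikbke, the inducible relative of Tbk1, had the largest difference of the 8 genes with ADU-S100 alone in the main fit. With the log2 scaling factor as a covariate Irf7 was larger (0.86 against 0.79). It had 438, 560 and 256 normalized counts in vehicle tumors, 1598, 1409 and 534 in ADU-S100 tumors, 1453, 1331 and 315 in olaparib tumors and 350, 406 and 385 in combination tumors. In both single-drug groups 2 of 3 tumors had at least 1331 and the remaining one lay in the range of the vehicle tumors, and the combination tumors lay inside the vehicle range. ADU-S100 alone minus vehicle was 1.42 (SE 0.63, fold 2.67, 95% interval 1.02 to 6.97, limma, unadjusted p = 0.0455, adjusted p = 0.809), and with the log2 scaling factor as a covariate it was 0.79 (limma, unadjusted p = 0.137). Olaparib alone minus vehicle was 1.09 (SE 0.63, limma, adjusted p = 0.582), and the combination minus olaparib alone was -1.16 (SE 0.63, limma, adjusted p = 0.603). With the factor as a covariate these were 0.36 and -0.36, and without olaparib tumor 1521 they were 1.80 and -1.87 (limma, adjusted p = 0.0544 and 0.0501). Averaged over both arms ADU-S100 gave 0.13 (SE 0.45, limma, adjusted p = 0.999).

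Irf3, the constitutively made partner of Irf7, had 619, 849 and 529 normalized counts in vehicle tumors, 923, 696 and 726 in ADU-S100 tumors, 923, 3039 and 497 in olaparib tumors and 642, 677 and 618 in combination tumors. Its groups overlapped except that the combination tumors were all below the ADU-S100 tumors, and the value of 3039 belonged to tumor 1517, the one with the largest scaling factor. ADU-S100 averaged over both arms gave -0.27 (SE 0.40, limma, adjusted p = 0.999).

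**Figure D2:**
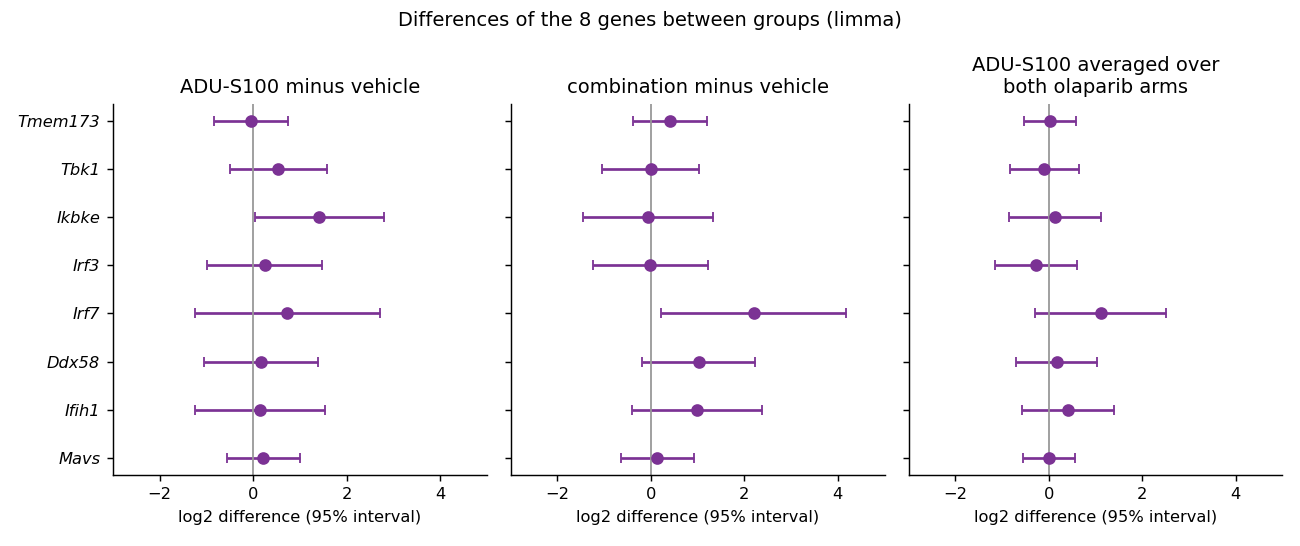
Differences on the log2 scale (points) with 95% intervals (lines) from limma for the 8 genes, in ADU-S100 alone minus vehicle, in combination minus vehicle, and in ADU-S100 averaged over the arms with and without olaparib. Only the intervals of Ikbke in the first panel and of Irf7 in the second leave out 0, and the intervals of Tmem173 reach at most 1.21.

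Counted over the 8 genes, none passed an adjusted p of 0.05 in any of the 7 comparisons (limma), and neither did any of the 689 genes, a background of 0%. The counts at an unadjusted p under 0.05 over all genes were 33 for ADU-S100 alone, 50 for olaparib alone, 53 for the combination against vehicle and 21 for ADU-S100 averaged over both arms, and edgeR on the recovered counts also called 0 genes after adjustment. Leaving out 1 tumor at a time moved these counts to between 13 (without vehicle tumor 1269) and 79 (without olaparib tumor 1521) for ADU-S100 alone, 19 (without vehicle tumor 1536 or olaparib tumor 1510) and 225 (without olaparib tumor 1521) for olaparib alone, 24 (without vehicle tumor 1536) and 77 (without vehicle tumor 1269) for the combination, and 8 and 50 for ADU-S100 averaged over both arms. With ADU-S100 alone, 1 of 8 genes was higher at an unadjusted p under 0.05 (Ikbke), against a background of 4.64% of all genes, and 1 of 8 was higher without overlap (Tbk1), against 13.9%. In the combination against vehicle 1 of 8 was higher at that threshold (Irf7), against 7.55%, and 2 of 8 were higher without overlap (Tmem173 and Irf7), against 18.4%, with none lower without overlap, against 1.6%.

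In the combination against olaparib alone, 2 of 8 genes were higher without overlap (Irf7 and Ifih1, background 11%) and 1 of 8 lower (Tbk1, background 1.74%). In the combination against ADU-S100 alone, 3 of 8 were lower without overlap (Tbk1, Irf3 and Ikbke, background 20.9%) and none higher (background 10.4%), and Ikbke was lower at an unadjusted p under 0.05 (limma, background 4.64%). For olaparib alone against vehicle no gene of the 8 was separated (background 3.77% higher), and for ADU-S100 averaged over both arms none was either (background 0.145%). At an unadjusted p under 0.05 (limma) none of the 8 was higher with olaparib alone (background 5.81%), with ADU-S100 averaged over both arms (3.05%) or in the combination against olaparib alone (4.5%) or ADU-S100 alone (4.5%), and none was lower in the combination against olaparib alone (2.76%). In the interaction of the 2 drugs none of the 8 was higher (1.89%) and Ikbke was lower (9%). The comparisons against vehicle share the same 3 vehicle tumors, so they are not independent of each other. The direction of small differences depended on the scaling: ADU-S100 alone minus vehicle was above 0 for 7 of the 8 genes as the authors scaled the data, where the median of all genes was 0.44, and for 2 of 8 after TMM scaling, where it was -0.15.

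The 8 genes fell apart by how they went with the scaling factor of the tumor, which came from the normalization against positive controls and housekeeping genes. Over the 12 tumors Irf3 (Pearson r = 0.94, Spearman rho = 0.91), Tbk1 (0.94 and 0.78), Mavs (0.87 and 0.79) and Ikbke (0.82 and 0.87) were higher on the log2 scale where the factor was larger. Their adjusted permutation p-values over the 689 genes were 0.000363, 0.000778, 0.00245 and 0.00124 for r, and 0.00249, 0.0145, 0.0125 and 0.00407 for rho. Without tumors 1506 and 1517, which lay farthest from the median factor, r was 0.85, 0.76, 0.69 and 0.90. Tmem173 (r = 0.26, rho = 0.36), Irf7 (-0.17 and -0.17), Ddx58 (0.25 and 0.11) and Ifih1 (-0.06 and -0.31) did not pass, with adjusted permutation p-values of at least 0.360. This relation was common in the panel: 353 of the 689 genes (51.2%) passed for r, and the median r was 0.59. Each value is a recovered count times the factor of its tumor, so the factor is part of both quantities compared. A positive r is thus partly built in, and the permutation p-values do not account for this. The factor also differed between the groups, so its part in the higher values of Tbk1 and Ikbke with ADU-S100 alone cannot be told apart from treatment.

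**Figure D3:**
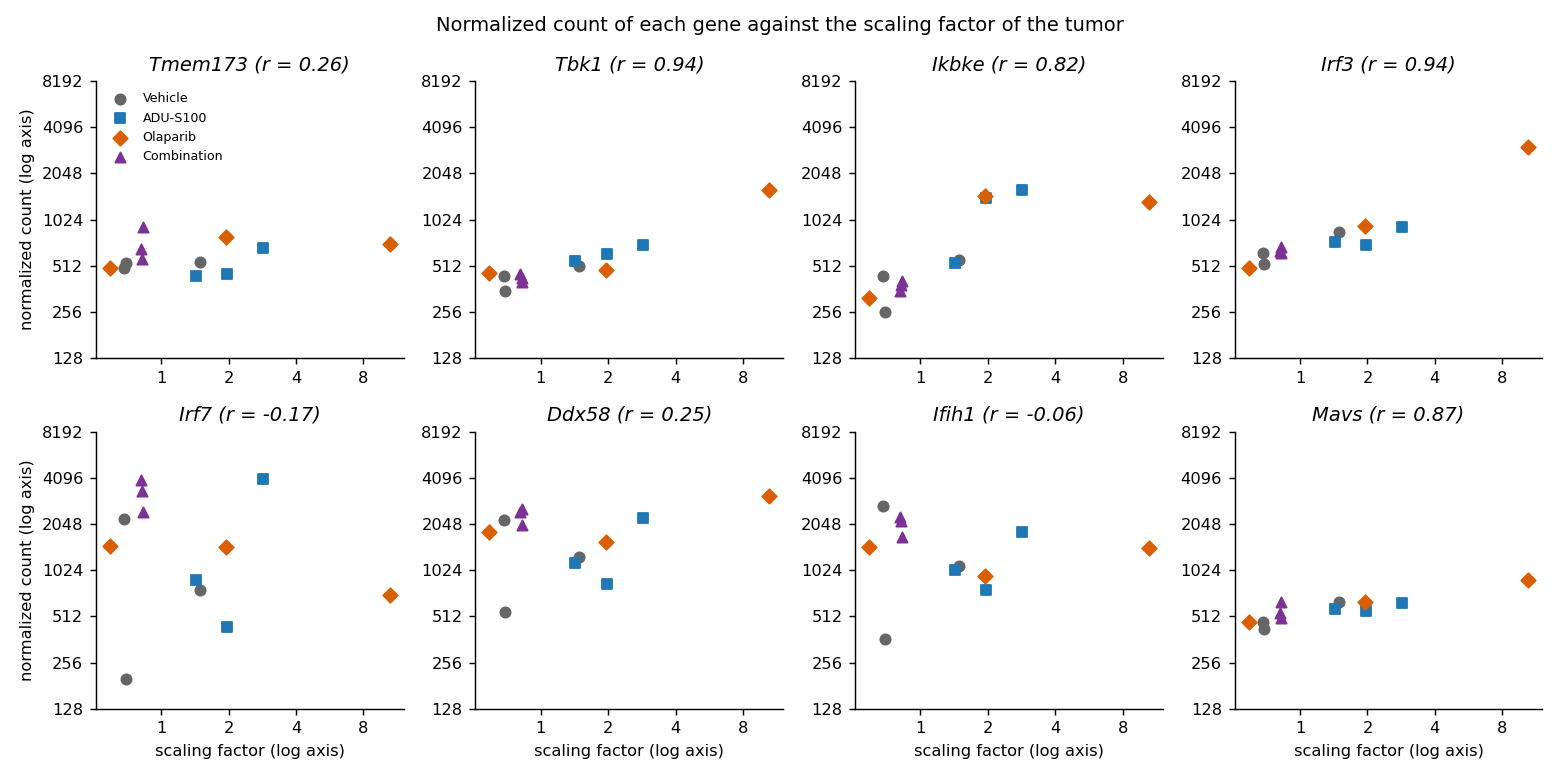
Normalized counts of the 8 genes (log axis) against the scaling factor of each tumor (log axis), with 1 symbol a tumor and r the Pearson correlation on the log2 scale. Tbk1, Ikbke, Irf3 and Mavs climb with the factor, and Tmem173, Irf7, Ddx58 and Ifih1 show no such order.

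In the difference of 2 genes within 1 tumor the factor cancels as a multiplier, and 3 pairs of relatives were therefore also compared within tumors. This does not take away the relation of a gene to the factor: per unit of the log2 factor Irf3 changed by 0.54 and Irf7 by -0.19 on the log2 scale, and tumor 1517 had the lowest Irf7 minus Irf3. Irf7 minus Irf3 on the log2 scale was 1.83, -0.15 and -1.39 in vehicle tumors, 2.12, -0.67 and 0.28 in ADU-S100 tumors, 0.65, -2.11 and 1.56 in olaparib tumors and 2.63, 1.86 and 2.45 in combination tumors. All 3 combination tumors exceeded every vehicle and every olaparib tumor, and 1 ADU-S100 tumor lay among them. The combination exceeded vehicle by 2.22 and olaparib alone by 2.28, each with an exact two-sided permutation p of 0.1, the smallest that 3 against 3 tumors allow, and an adjusted p of 0.5 over 15 tests of 3 pairs. ADU-S100 alone differed from vehicle by 0.48 (exact permutation p = 0.7), and ADU-S100 averaged over both arms by 1.38 (exact permutation p = 0.135 over 400 relabelings within the arms, of which the smallest possible is 0.005).

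Ikbke minus Tbk1 was between -0.53 and 0.14 in 9 tumors and 1.18, 1.19 and 1.59 in the other 3, which were the ADU-S100 tumors 1506 and 1512 and the olaparib tumor 1510. The group means were -0.10 in vehicle, 0.78 in ADU-S100, 0.26 in olaparib and -0.17 in combination tumors. ADU-S100 alone differed from vehicle by 0.88 (exact permutation p = 0.3) and ADU-S100 averaged over both arms by 0.22 (exact permutation p = 0.675). Ifih1 minus Ddx58 lay within -0.29 and -0.11 in all ADU-S100 and combination tumors, and reached from -0.58 to 0.29 in vehicle and from -1.13 to -0.32 in olaparib tumors. The combination exceeded olaparib alone by 0.52 (exact permutation p = 0.1) and ADU-S100 averaged over both arms differed by 0.25 (exact permutation p = 0.22). The remaining 7 tests of the pairs had exact permutation p-values from 0.2 to 1.

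**Figure D4:**
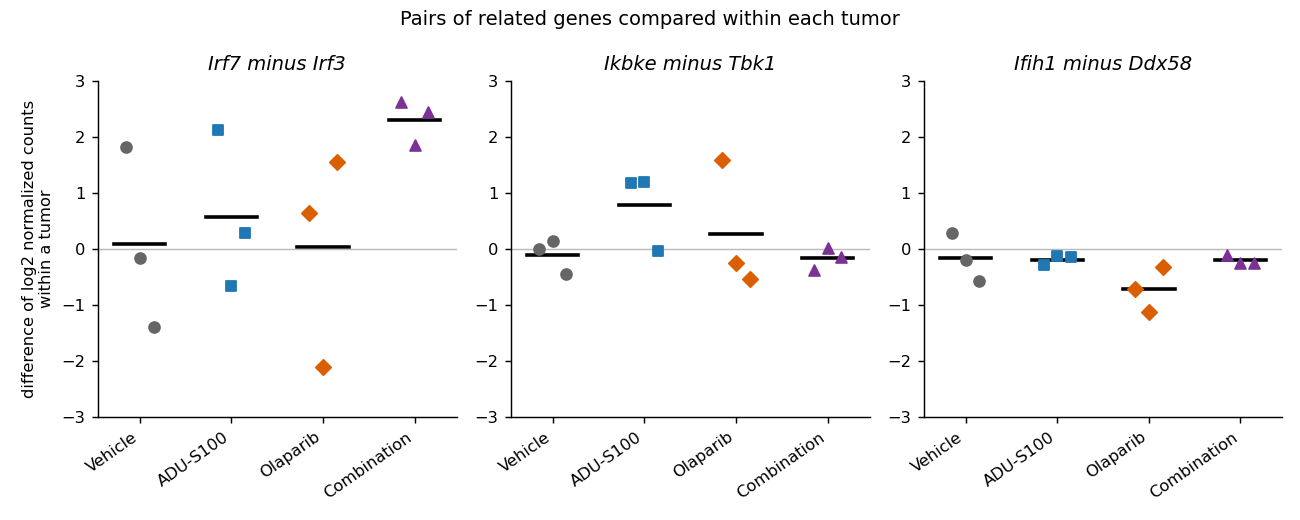
Difference of log2 normalized counts between 2 related genes within each tumor, by group, with 1 symbol a tumor and a line at the group mean. In the first panel the combination tumors lie between 1.86 and 2.63, and in the second 3 tumors stand apart at 1.18 or more.

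The genes whose levels over the 12 tumors were most like those of Irf7 were Ifi44 (Pearson r = 0.95), Zbp1 (0.90), Irgm2 (0.89), Bst2 (0.89) and Ifit2 (0.88), all interferon-stimulated genes. Among the 8, Ifih1 was most like Irf7 (r = 0.89, rank 4 of 688 genes), followed by Ddx58 (r = 0.80, rank 25), while Tbk1, Irf3 and Ikbke had r between -0.10 and -0.01. The genes most like Tmem173 were H2-Eb1 (r = 0.87), the class II transactivator Ciita (0.86), Ccr6 (0.86), Pdcd1 (0.85) and Cd6 (0.84), genes of antigen presentation and lymphocytes. The best of the 8 was Mavs (r = 0.55, rank 108 of 688). These likenesses are descriptions over 12 tumors that share treatments and scaling.

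Around the 8 genes, other parts of the pathway were read from lists of genes by role, and none of their genes passed an adjusted p of 0.05 in any of these comparisons (limma). Other sensors and adaptors were tested for 8 of 15 genes, and 7 were higher in value in the combination against vehicle (median 0.52, all genes 0.21). Of all 689 genes 65.3% were higher in value in this comparison, and the counts of the lists stand beside that share. Zbp1, a sensor of Z-form nucleic acid, had 1.32 (SE 0.61, limma, adjusted p = 0.638), and Ticam2, an adaptor of Toll-like receptors, 0.41 (SE 0.43, limma, adjusted p = 0.962). Of the 15 signal carriers 14 were higher in value (median 0.32), and against olaparib alone 7 were higher and 8 lower (median -0.03, all genes -0.15). Against vehicle the differences were 0.45 (SE 0.60) for Irak4, a kinase below Toll-like receptors, and 0.49 (SE 0.54) for Tnfaip3, an inhibitor of NF-κB. All 7 of the other IRFs and STATs that were tested were higher in value (median 0.89), among them Irf8 at 0.89 (SE 0.52) and Irf5 at 0.64 (SE 0.61).

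Output genes of IRF3 and IRF7 showed the largest values of these lists, with 14 of 16 tested genes higher in the combination against vehicle and a median of 1.47. At an unadjusted p under 0.05 (limma) 5 of the 16 were higher, against the background of 7.55% of all genes: Cxcl10, Ccl5, Ifit2, Oasl1 and Bst2. ADU-S100 alone against vehicle had 15 of 16 higher in value (78.2% of all genes) and 2 at that threshold (Isg20 and Oasl1, background 4.64%). Olaparib alone against vehicle had 15 of 16 higher in value (median 1.12, all genes 0.45, 74.6% of all genes higher) and 5 at that threshold (Ifnb1, Ifna1, Cxcl10, Mx2 and Oasl1, background 5.81%). These values include olaparib tumor 1517, where 1 count is worth 10.5 normalized counts and 333 genes of the panel had at most 20 counts. The recovered counts of the named genes are not given here. Between the combination and olaparib alone, 7 were higher and 9 lower in value in the combination (median -0.03), and in the interaction 3 were lower at that threshold (Ifnb1, Ifna1 and Ifna4, background 9%). Ccl5, a chemokine for T cells, ranged over 51.3 to 207 normalized counts in vehicle tumors, 147 to 524 in ADU-S100 tumors, 83.8 to 225 in olaparib tumors and 446 to 1372 in combination tumors. Its difference was 2.80 (SE 0.70, limma, adjusted p = 0.278) in the combination and 1.77 (SE 0.49, limma, adjusted p = 0.999) for ADU-S100 averaged over both arms. Cxcl10, which draws CXCR3-bearing lymphocytes, had 2.10 (SE 0.74, limma, adjusted p = 0.438) and 0.95 (SE 0.52, limma, adjusted p = 0.999) in those comparisons. The interferon receptor genes Ifnar1 and Ifnar2 had 0.08 (SE 0.43) and 0.30 (SE 0.49) in the combination against vehicle.

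For ADU-S100 alone against vehicle the medians were 0.32 for sensors and adaptors, 0.16 for signal carriers, 0.61 for other IRFs and STATs and 0.92 for output genes, against 0.44 for all genes. For ADU-S100 averaged over both arms they were 0.11, 0.10, 0.39 and 0.42, against 0.14.

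No immune or stromal marker checked passed an adjusted p of 0.05 in any comparison (limma), but some lists lay to one side in value. All 5 T-cell markers were higher in value in the combination against vehicle, 4 of them at an unadjusted p under 0.05 (limma; 7.55% of all genes at that threshold and 65.3% higher in value), and their summed normalized counts were 79.0 to 161 in vehicle, 131 to 316 in ADU-S100, 114 to 482 in olaparib and 275 to 441 in combination tumors. The olaparib sums of low markers include tumor 1517, where 1 count is worth 10.5 normalized counts, so few counts can make a large sum. All 6 stromal and vascular markers were lower in value both in the combination (median -1.07, 1 at an unadjusted p under 0.05, background 0.145%) and in olaparib alone against vehicle (median -1.57, 4 at that threshold, background 1.45%). Their sums were 16626 to 88572 in vehicle, 32566 to 55910 in ADU-S100, 4448 to 32717 in olaparib and 14192 to 27901 in combination tumors. Macrophage and monocyte markers went both ways in the combination against vehicle (3 higher and 2 lower, median 0.05, all genes 0.21, Cd14 higher at that threshold), as did dendritic cell markers (2 and 1, median 0.08, Itgax higher at that threshold) and NK cell markers (1 and 1, median 0.50), and the 1 B-cell marker tested was 0.64 higher. With ADU-S100 alone both NK cell markers were higher in value (median 1.83, all genes 0.44, Ncr1 at that threshold, background 4.64%). Their sums were only 15.2 to 34.2 in vehicle tumors and 47.1 to 265 in ADU-S100 tumors. In the lowest vehicle tumor both were under the filter value of 20, so they may have passed the filter through tumors where they were high. Their rise is therefore not a test of NK cells. The leukocyte marker Ptprc was 0.88 higher with ADU-S100 alone and 0.55 higher in the combination. Macrophage and monocyte sums were 3427 to 4658 in vehicle, 3460 to 6076 in ADU-S100, 3195 to 4852 in olaparib and 4495 to 6149 in combination tumors. The part of the cell mix in the Irf7, Ddx58, Ifih1 and Tmem173 values was not tested.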

How the data were processed

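RNA of 12 tumors (4 treatment groups of 3) was counted on the nCounter PanCancer Immune Profiling Panel. The authors corrected the counts for background and normalized them in nSolver against positive controls and housekeeping genes, and the deposited signal values are these normalized counts. In each tumor at least 99.866% of values above the floor were whole multiples of 1 scaling factor (tolerance 0.01), so whole counts were recovered. Genes that reached 20 in 3 or more tumors were kept. Log2(value + 1) was fitted with limma 3.58.1 in 1 model of 4 group means over all 12 tumors, with Benjamini-Hochberg adjustment over the 689 genes and a threshold of 0.05. The alternatives were edgeR 4.0.16 on the recovered counts, other scalings, filters and pseudocounts, the methods' t-test, the number series as a block, the log2 factor as a covariate and each tumor left out. The fits were tested on simulated data with the same groups of 3 tumors. For ADU-S100 alone against vehicle, limma recovered 6% of genes changed by 1 log2 unit and 46% of those changed by 2. With edgeR these were 4% and 29%. For ADU-S100 averaged over both arms limma recovered 25% and 80%. A gene that did not pass may therefore still have changed. Pairs were tested by exact permutation, and correlations with 100000 permutations.

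The 8 genes, the lists and the tests were chosen with earlier results of these data known. All 8 were named by rule; of each list the 2 genes with the largest absolute difference in ADU-S100 averaged over both arms were named, since none passed the threshold, together with the 5 genes most correlated with Irf7 and Tmem173. Output genes and cell markers at an unadjusted p under 0.05 were named after their values were seen. A planned comparison of protein sequences was not made. Promoter sequences came from RefSeq, with a whole chromosome left out of the search (7 of 8 members matched).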

Additional observations from a re-analysis of the deposited data

Results flagged for a closer look

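The effect of ADU-S100 had opposite directions without and with olaparib in Ikbke, Tbk1, Irf3 and Mavs: every ADU-S100 tumor was above the vehicle mean and every combination tumor below the olaparib mean. For Ikbke the effect was 1.42 without and -1.16 with olaparib, and the difference of the effects was -2.57 (SE 0.89, limma interaction, unadjusted p = 0.0144, adjusted p = 0.346). Ikbke was 1 of the 8 genes lower at an unadjusted p under 0.05 in this interaction, against a background of 9% of all genes. For Tbk1 the effects were 0.53 and -0.72, and their difference was -1.26 (SE 0.67, limma, adjusted p = 0.439). For Irf3 they were 0.25 and -0.79, with a difference of -1.04 (SE 0.79, limma, adjusted p = 0.555). For Mavs they were 0.22 and -0.21, with a difference of -0.43 (SE 0.51, limma, adjusted p = 0.719). The effects with olaparib of Tbk1, Irf3 and Mavs rested largely on olaparib tumor 1517, the one with the largest scaling factor. Without it they were -0.14 for Tbk1, -0.07 for Irf3 and -0.83 for Ikbke, and for Mavs 0.02, no longer opposite. The differences of the effects were then -0.67, -0.32, -2.25 and -0.20 in that order of genes (limma, adjusted p from 0.562 to 0.888). The median difference of the effects over all 689 genes was -0.55 as the authors scaled the data and 0.0030 with all tumors scaled to the same median. As the authors scaled them, 78.2% of all genes were higher with ADU-S100 alone. Only 41.4% were higher in the combination against olaparib alone, and 30.9% had a difference of the effects above 0. The share of all genes that met the tumor-by-tumor rule was not counted. These 4 are the genes that went with the scaling factor, which was 1.43 to 2.85 in ADU-S100, 0.682 to 1.49 in vehicle, 0.589 to 10.5 in olaparib and 0.810 to 0.824 in combination tumors. With the log2 factor as a covariate the difference was -1.16 for Ikbke (limma, adjusted p = 0.627) and -0.10 for Tbk1, and it turned to 0.58 for Irf3 and 0.19 for Mavs. Without olaparib tumor 1521 that for Ikbke was -3.29 (limma, adjusted p = 0.0198).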

How the results depend on the processing

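Of the values computed for 53 results under all settings, 1035 kept their direction and side of the threshold, 48 changed direction, 79 moved, and 3 gained significance. No paired analysis was possible because the groups share no tumor numbers. Each group had 3 tumors, and scaling factors differed by up to 17.8 times.

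For the count of genes past the threshold, 0 in every comparison as reported, leaving out 1 tumor each gave 0 to 55 for olaparib alone against vehicle, 0 to 54 for the combination against olaparib alone and 0 to 86 for the interaction, the highest of each without olaparib tumor 1521, and 0 to 1 for the combination against ADU-S100 alone, the highest without tumor 1506. Without tumor 1521, 1 of the 8 genes passed in the interaction (range 0 to 1), Ikbke. Without tumors 1517 and 1521 together, an alternative chosen after seeing the data, the first 3 counts were 11, 7 and 24, but olaparib alone is then tumor 1510 only, assumed to vary like the other groups. In the combination against vehicle the count was 2 in a model of those groups only, and 4 with the methods' t-test after Benjamini-Hochberg adjustment and 4 with the log2 factor as a covariate, which left 0 in the other comparisons. In the combination against ADU-S100 alone it was 1 with a pseudocount of 10, a filter at 50, scaling to the same median, quantile normalization or an intensity trend.

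Sign changes are given for the differences whose values the text above reports; others of the 8 genes were not listed. For ADU-S100 averaged over both olaparib arms, edgeR with TMM gave -0.20 for Tmem173, -0.10 for Ikbke, -0.16 for Ddx58, -0.10 for Ifih1 and -0.19 for Mavs, and edgeR with the authors' factors -0.023 for Mavs. Scaling to the same median gave -0.11 for Tmem173, -0.0033 for Ikbke and -0.13 for Mavs, and quantile normalization -0.093 for Tmem173 and -0.15 for Mavs. The number series as a block gave -0.0018 for Tmem173 and -0.0056 for Mavs, and 0.012 for Tmem173 in ADU-S100 alone against vehicle. With tumor 1510 as the only olaparib tumor (without 1517 and 1521) the averages were -0.11 for Tmem173, 0.18 for Tbk1 and -0.26 for Ikbke. Leaving out 1 tumor each, they ranged from -0.074 to 0.10 for Tmem173, -0.25 to 0.20 for Tbk1, -0.56 to 0.089 for Irf3, -0.23 to 0.38 for Ikbke, -0.10 to 0.40 for Ddx58 and -0.11 to 0.12 for Mavs. In ADU-S100 alone against vehicle, Tmem173 ranged from -0.24 to 0.068 over the tumors left out, but to -0.59 by edgeR with TMM, Irf7 from -0.16 (without ADU-S100 tumor 1506) to 1.56 (without vehicle tumor 1269), and Irf7 minus Irf3 from -0.29 to 1.35. Irf7 there was -0.11 by edgeR with TMM. For Tmem173, the combination minus olaparib alone was -0.016 with the number series as a block and -0.18 with tumor 1510 as the only olaparib tumor, and it ranged from -0.11 to 0.24 over the tumors left out. The interaction for Mavs was 0.21 by edgeR with TMM, 0.13 after scaling to the same median, 0.070 after quantile normalization and 0.19 with the factor as a covariate, which also gave 0.58 for Irf3. Irf7 in the combination against vehicle stayed above 0 in every setting, from 1.17 by edgeR with TMM to 3.03, and its adjusted p ranged from 0.247 to 0.999. The causes were not tested.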
